A study of Mus musculus with 11 samples.

Results

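Livers that received a vector for the Notch2 intracellular domain (NICD2) were compared with livers that received a vector for green fluorescent protein (GFP) alone. The comparison used the 3 arrays labelled as NICD2 overexpression and the 3 labelled as GFP control, 6 of the 11 samples of the series, and it covered 36052 of the 56605 probes on the array, those that the scanner software marked as well above background for 2 or more of the 11 samples. The mice were C57Bl6/J males that the study injected intraperitoneally at the age of 8 weeks with adeno-associated virus of serotype 8 (AAV8), a vector that reaches the liver well, and total RNA of whole liver was taken 5 days later. The GFP group carried 6e+11 viral genomes of the GFP vector, and the NICD2 group carried 3e+11 viral genomes of the NICD2 vector with 3e+11 of the GFP vector, so the dose of GFP vector differed between them. The other 5 arrays came from 3 livers with the Notch1 intracellular domain (NICD1; 3e+11 viral genomes, with 3e+11 of the GFP vector) and from 2 livers with both domains (NICD1&2; 3e+11 of each, without GFP vector). All vectors drove their insert from the CMV promoter, which is not restricted to hepatocytes, and the labels number the samples without saying whether each is a separate mouse, so the p-values measure the spread between these samples. In RNA of whole liver, fewer cells of a type and less RNA per cell cannot be told apart.

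Notch receptors are cut when a ligand on a neighbouring cell binds them, and the freed intracellular domain enters the nucleus. There it joins the DNA-binding protein RBPJ and a Mastermind co-activator and switches on target genes, of which Hes1, Nrarp and the Hey genes are widely used readouts. In the liver, Notch signalling is known for directing progenitor cells towards the bile duct lineage, whose cells express Sox9 and Spp1. A vector for the intracellular domain alone needs no ligand and no cleavage. The study asked how forced Notch1 and Notch2 signalling differ in their effects on the liver.

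Signal is given throughout as log2 of the processed signal of a probe less the 75th percentile of its array, so that 0 is the level of that percentile and 1 unit is a factor of 2 in signal. Between 57.4% and 60.7% of spots were well above background on the 6 arrays, 0 spots were saturated, and the median standard deviation of a probe between arrays was 0.17 in the GFP group and 0.19 in the NICD2 group. The hepatocyte list, which holds genes such as Alb and Hnf4a, was well above background on all arrays for 23 of 23 genes, and its mean level was 6.37 to 6.47 on the GFP arrays and 6.35 to 6.54 on the NICD2 arrays. The first GFP array had the lowest median signal over all probes, at -4.07, against -3.92 to -3.51 on the other 10.

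A small set of genes rose in NICD2 liver, led by Wfdc3, Krt79, Scgb1a1, Tmprss7, Pnliprp1, Slc10a6 and Pfkfb4. At an adjusted p under 0.05 (limma, Benjamini-Hochberg over all tested probes) 19 probes differed between NICD2 and GFP liver, which is 0.0527% of those tested. Of them, 16 probes were higher (0.0444%) and 3 were lower (0.00832%). They stood for 15 named genes and 3 probes without a gene name, Wfdc3 being measured by 2 of the probes. The 3 NICD2 arrays lay on one side of the 3 GFP arrays for all 19, whereas the groups did not overlap for 13.4% of all tested probes (7.81% higher and 5.56% lower). At an adjusted p under 0.1 the count was 57, and at an unadjusted p under 0.05 it was 2473, where 1803 would be met by chance alone.

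**Figure D1:**
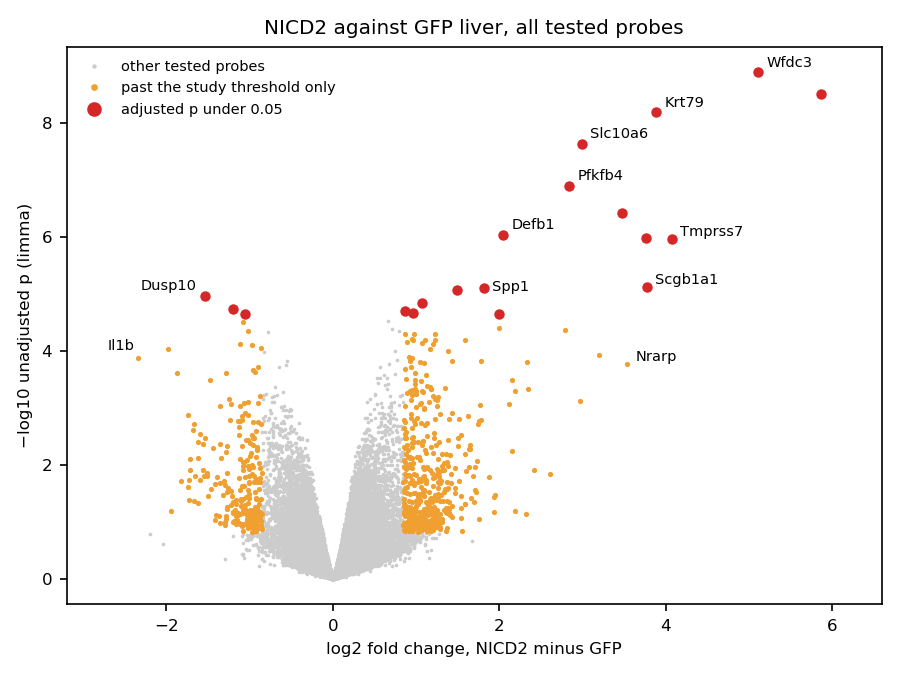
Each point is 1 of 36052 tested probes, with the log2 fold change of NICD2 minus GFP on the horizontal axis and −log10 of the unadjusted limma p on the vertical axis. The 19 red points are the probes at an adjusted p under 0.05, of which 16 lie to the right, and the orange points pass only the threshold of the study's methods, an unadjusted P under 0.15 with a fold change over 1.8.

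Of these 19 probes, 9 passed the test whichever of the 6 arrays was left out, namely both Wfdc3 probes and those of Krt79, Tmprss7, Pnliprp1, Slc10a6, Pfkfb4 and Defb1 and the unnamed probe A_66_P115236. The remaining 10 lost the call in some or all of these fits. Scgb1a1 passed only without NICD2 array 1, and Sema5a only without GFP array 3. Spp1 lost its call without GFP array 1, GFP array 2, NICD2 array 2 or NICD2 array 3, and the unnamed probe A_55_P2920938 without any 1 of the GFP arrays or without NICD2 array 1. Vasn, Eva1c, Prelp, Ikzf3, Dusp10 and the unnamed probe A_55_P2091120 missed the threshold in each of the 6 fits. The arrays lay on 2 slides that each held both groups. Slide 2 held 1 array of each, and 0 probes passed the test within either slide. With the slide as a block 14 probes passed, 13 of them among the 19.

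Among the genes that rose, Wfdc3 and Scgb1a1 encode secreted proteins of epithelia. Wfdc3, of the whey acidic protein family, read -4.23, -3.77 and -4.35 on the GFP arrays and 0.81, 1.0 and 1.18 on the NICD2 arrays. The NICD2 arrays all lay far above the GFP arrays, of which 2 were well above background for this probe, and the difference was 5.11 (SE 0.20), a 34.5-fold rise on the processed signal (adjusted p = 4.69e-05) and 2.50 on the log2 scale with normexp background correction and quantile normalisation. The other Wfdc3 probe was not well above background on any GFP array and read -1.47, -1.33 and -1.30 on the NICD2 arrays, at least 10.5-fold higher (adjusted p = 0.00232). Scgb1a1, the secretoglobin known from the club cells of the airway, read -4.30, -4.40 and -3.90 in GFP liver, above background on 2 arrays, and -1.02, -0.11 and -0.15 in NICD2 liver. Its 13.7-fold rise had the widest error of the called genes with a fold (3.78, SE 0.41, adjusted p = 0.0262). Of the 18 genes tested from a list of 20 secretory epithelium genes, these 2 rose, and the other 16 had log2 differences from -0.45 to 0.89. Over all 16635 genes tested, each represented by 1 probe, 0.0781% passed the test (0.0721% higher and 0.00601% lower). The median of the list was 0.20, beside 0.02 over all genes, and it was -0.00 without GFP array 1.

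Krt79, a type II keratin known from the skin, read -3.21, -2.82 and -3.24 in GFP liver and 0.81, 0.61 and 0.97 in NICD2 liver. The groups were far apart, and the 14.8-fold rise (3.89, SE 0.19, adjusted p = 7.82e-05) was the only call among 10 keratins tested. The other 9 had differences from -0.80 to 0.40, where Krt5 at -0.80 was not well above background on any NICD2 array. The keratins of hepatocytes, Krt8 and Krt18, differed by 0.18 and 0.12, and those of bile ducts, Krt7 and Krt19, by 0.16 and 0.09. The median over the 10 was 0.11, and -0.09 without NICD2 array 3.

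**Figure D2:**
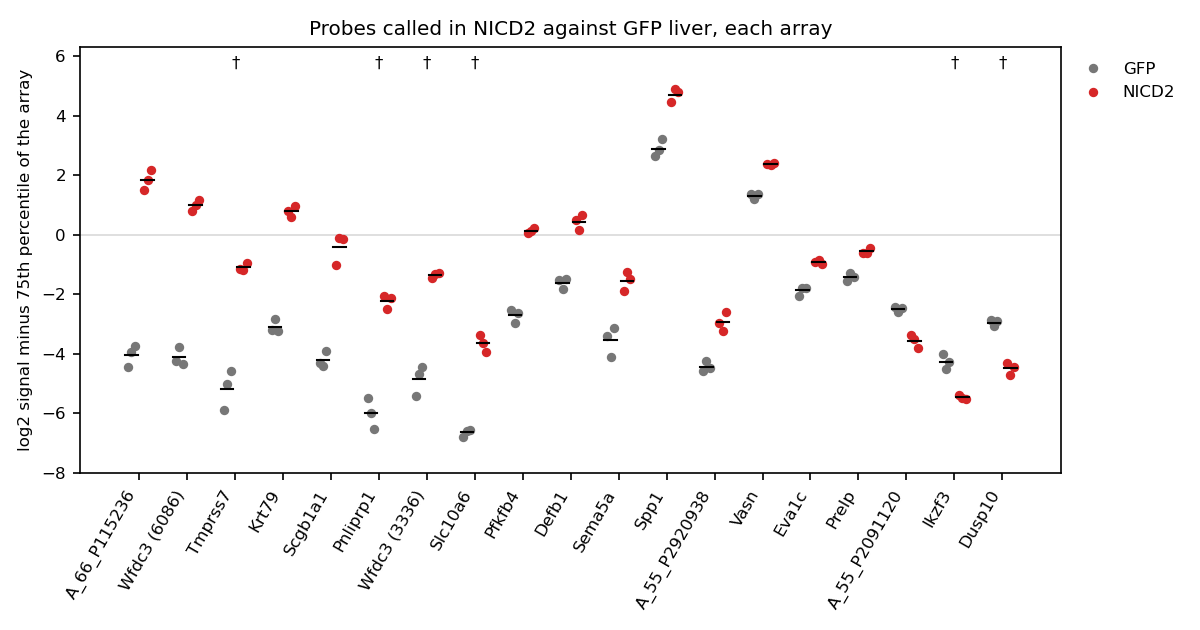
Signal of the 19 called probes, as log2 signal less the 75th percentile of the array, on each GFP array (grey) and each NICD2 array (red), with bars at the group means. The groups do not overlap for any probe, and daggers mark the 6 probes that were not well above background on any array of their lower group, where the lower points are not measured levels. The numbers after Wfdc3 are the last digits of its 2 probes.

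Tmprss7, Pnliprp1 and Slc10a6 were also among the genes that rose. Tmprss7, a transmembrane serine protease, was not well above background on any GFP array and read -1.16, -1.19 and -0.94 on the NICD2 arrays, at least 13.1-fold higher (adjusted p = 0.00432). Pnliprp1, a lipase-related protein of the exocrine pancreas, was likewise below that limit on all GFP arrays and read -2.05, -2.50 and -2.14, at least 6.98-fold higher (adjusted p = 0.00432). Slc10a6, a transporter of sulphated steroids, read -3.35, -3.63 and -3.95 on the NICD2 arrays against GFP arrays that were not well above background, at least 2.62-fold higher (adjusted p = 0.000212). Slc10a6 passed the filter only through the 3 NICD2 arrays and 1 NICD1&2 array, where it was high, so this p is a description. These 3 genes thus had a measured level in NICD2 liver and only an upper bound in GFP liver.

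Pfkfb4, which makes and breaks down the glycolysis activator fructose 2,6-bisphosphate, read -2.51, -2.98 and -2.62 in GFP liver and 0.04, 0.14 and 0.23 in NICD2 liver. The 3 NICD2 arrays agreed closely, and the rise was 7.15-fold (2.84, SE 0.19, adjusted p = 0.000921). Defb1, an antimicrobial beta-defensin of epithelia, read -1.51, -1.83 and -1.48 against 0.49, 0.17 and 0.66, a 4.14-fold rise (2.05, SE 0.17, adjusted p = 0.00432). Sema5a, a semaphorin of axon guidance, read -3.40, -4.10 and -3.13 against -1.90, -1.26 and -1.48, a 4.0-fold rise with an adjusted p of 0.0438. All NICD2 arrays were above all GFP arrays for these genes.

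Spp1, the secreted phosphoprotein osteopontin, is made by bile duct cells and macrophages in the liver. It read 2.63, 2.83 and 3.2 in GFP liver and 4.44, 4.88 and 4.78 in NICD2 liver, a 3.51-fold rise (1.81, SE 0.20, adjusted p = 0.0262). The remaining 3 named genes that rose did so by about a factor of 2 with small errors. Vasn, a membrane protein that binds transforming growth factor beta, read 1.37, 1.2 and 1.37 against 2.38, 2.34 and 2.42 (1.07, SE 0.13, adjusted p = 0.0369). Eva1c, a membrane protein, had a difference of 0.96 on the called probe (SE 0.12, adjusted p = 0.0438) and of 1.06 on its other probe (adjusted p = 0.218). Prelp, a proteoglycan of connective tissue, had 0.87 (SE 0.11, adjusted p = 0.0438) on the called probe and 0.45 (adjusted p = 0.45) on the other.

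Of the probes without a gene name, A_66_P115236 had the highest fold of all tested probes that passed. It read -4.44, -3.95 and -3.74 in GFP liver and 1.48, 1.83 and 2.17 in NICD2 liver, a 58.5-fold rise (5.87, SE 0.26, adjusted p = 5.63e-05). A_55_P2920938 rose by 1.49 (SE 0.17, adjusted p = 0.0262), and it was well above background on 1 GFP array. The third, A_55_P2091120, read -2.44, -2.61 and -2.46 in GFP liver and -3.38, -3.49 and -3.81 in NICD2 liver, and fell 2.07-fold (adjusted p = 0.0438).

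The named genes that fell were Dusp10 and Ikzf3. Dusp10, a phosphatase that switches off the stress kinases p38 and JNK, read -2.87, -3.08 and -2.91 in GFP liver. It was not well above background on any NICD2 array. The fold of 2.91 lower (adjusted p = 0.0301) uses those NICD2 readings as they stand and is not a minimum. Ikzf3, the lymphocyte transcription factor Aiolos, was at least 1.54-fold lower on a probe that 2 of 3 GFP arrays and none of the NICD2 arrays measured (adjusted p = 0.0438). That probe passed the filter only through these GFP arrays and 1 NICD1 array. The other probes of Ikzf3 were well above background on all 6 arrays and had differences of -0.61 (adjusted p = 0.706) and -0.30 (adjusted p = 0.863).

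The folds above depend on the background correction and normalisation, which were changed together in 1 alternative. Normexp correction with an offset of 50, which draws low signals together, followed by quantile normalisation, kept the direction of all 19 probes and gave smaller log2 differences. It gave 3.32 for A_66_P115236, 2.28 for Krt79, 1.54 for Scgb1a1, 1.55 for Pfkfb4 and 1.40 for Defb1. Genes with only a bound in GFP liver had 1.1 (Tmprss7), 0.66 (Pnliprp1) and 0.26 (Slc10a6), below their bounds on the processed signal, and the second Wfdc3 probe had 0.95. Sema5a had 0.72, Eva1c 0.51, Prelp 0.53 and A_55_P2920938 0.29, and on the lower side A_55_P2091120 and Dusp10 had -0.29 each and Ikzf3 -0.15. Spp1 (1.70) and Vasn (0.98) were little affected.

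The promoters of 4 of the genes that rose are shown because RBPJ, the DNA-binding partner of NICD2, recognises the word GTGGGAA. The word was searched on both strands, so that it appears as TTCCCAC where it lies on the opposite strand, and matches are in capitals. Each sequence runs 5′ to 3′ in the direction of the gene, from 250 bases before its start to 50 bases after it, and comes from RefSeq on GRCm38.p6. Wfdc3 lies on the minus strand at chr2:164743218-164743517, Pnliprp1 on the plus strand at chr19:58728637-58728936, Eva1c on the plus strand at chr16:90830609-90830908 and Krt79 on the minus strand at chr15:101940275-101940574.
Wfdc3: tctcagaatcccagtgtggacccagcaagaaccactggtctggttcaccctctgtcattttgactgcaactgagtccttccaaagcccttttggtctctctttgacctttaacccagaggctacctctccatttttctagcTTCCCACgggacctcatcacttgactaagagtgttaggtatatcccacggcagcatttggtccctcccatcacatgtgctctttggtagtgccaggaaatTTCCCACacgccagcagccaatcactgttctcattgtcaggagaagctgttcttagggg
Pnliprp1: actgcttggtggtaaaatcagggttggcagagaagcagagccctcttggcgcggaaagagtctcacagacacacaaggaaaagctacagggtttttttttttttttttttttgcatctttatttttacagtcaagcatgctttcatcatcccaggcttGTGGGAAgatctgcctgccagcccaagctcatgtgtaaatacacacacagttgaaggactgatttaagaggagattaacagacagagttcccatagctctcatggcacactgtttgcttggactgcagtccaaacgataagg
Eva1c: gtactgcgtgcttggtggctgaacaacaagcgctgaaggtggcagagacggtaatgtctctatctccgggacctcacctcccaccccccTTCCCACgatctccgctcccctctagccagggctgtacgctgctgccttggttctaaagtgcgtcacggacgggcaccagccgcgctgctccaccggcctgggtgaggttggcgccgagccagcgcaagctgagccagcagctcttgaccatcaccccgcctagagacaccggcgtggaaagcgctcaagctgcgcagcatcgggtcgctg
Krt79: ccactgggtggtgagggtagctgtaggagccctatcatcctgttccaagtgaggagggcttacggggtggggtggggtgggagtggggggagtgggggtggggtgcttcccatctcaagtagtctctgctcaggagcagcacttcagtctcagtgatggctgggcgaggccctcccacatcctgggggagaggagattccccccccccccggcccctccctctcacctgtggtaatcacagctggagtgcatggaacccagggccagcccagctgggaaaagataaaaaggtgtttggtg

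Wfdc3 held 2 matches, both on the opposite strand, which begin at -109 and -9 relative to the start. Pnliprp1 held 1 on the strand of the gene at -92, and Eva1c held 1 on the opposite strand at -161, while Krt79 held 0 in this window. The table had a promoter for 11 of the 15 named genes that passed the test, and these 3 of the 11 held the word. The word was held by 6.38% of all 32851 promoters listed and by 7.17% of the promoters of the 13157 tested genes found there. A match is a description of the letters and was not tested for binding.

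The receptors, ligands and enzymes of the pathway itself had differences from -0.94 to 0.35. The Notch2 probe read 1.86, 1.66 and 1.77 in GFP liver and 1.86, 2.06 and 1.99 in NICD2 liver, a difference of 0.21 (SE 0.10, adjusted p = 0.76), and the groups met at 1.86. The Notch1 probe read 0.69, 0.66 and 0.30 against 0.64, -0.38 and 0.28 (-0.37, SE 0.28, adjusted p = 0.895). Whether either probe lies in the part of the gene that the vectors carried is not given in the sources used here, so neither probe checks the labels. Of 28 pathway components tested from a list of 31, 0 passed the test, 14 were higher and 14 lower, and the median was 0.00. The ligands Jag1, Dll1 and Dll4 had differences of -0.11, 0.03 and 0.35, and Rbpj one of -0.04.

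Of 15 Notch target genes tested from a list of 20, Spp1 was the one that passed the adjusted threshold, 10 were higher and 5 lower, and the median was 0.11 (0.08 to 0.29 with single arrays left out) against 0.02 over all genes. The groups did not overlap for 4 of them, all higher, where 9.8% of all genes tested were higher without overlap. Nrarp, a target that feeds back on the Notch complex, was not well above background on any GFP array and read -2.68, -2.58 and -2.10 in NICD2 liver, at least 5.13-fold higher with an adjusted p of 0.103. Hes1, the classical target repressor, read -1.77, -2.64 and -3.06 in GFP liver and -1.41, -1.06 and -0.08 in NICD2 liver, a difference of 1.64 that did not pass (SE 0.45, adjusted p = 0.414). Its values spread by more than 1 log2 unit within each group, and the difference was 0.97 within slide 1 and 2.97 within slide 2. Sox9, a transcription factor of bile duct cells, read -1.57, -1.80 and -1.78 against -1.27, -0.66 and -0.70 (0.84, SE 0.28, adjusted p = 0.573). Hey1 and Heyl, whose groups overlapped, had 0.29 and -0.43, and Myc had -0.85.

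Bile duct genes other than Spp1 did not pass the test. Of the 17 tested, 12 were higher and 5 lower with a median of 0.16 (0.07 without GFP array 1), and the groups did not overlap for 5, all higher (9.8% of all genes). Beside Spp1 and Sox9 these included the membrane mucin Muc1 (0.85, SE 0.35, adjusted p = 0.706), which had 0.39 without GFP array 1. The others were Cldn7 (0.17) and Cftr (0.60), which was well above background on 1 array of each group. Epcam, an adhesion molecule of bile duct cells, had 0.48 with overlapping groups (adjusted p = 0.86).

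Of the exocrine pancreas list, 12 of 24 genes were tested and only Pnliprp1 passed. Reg1, a secreted lectin of acinar cells, was not well above background on any GFP array and read -3.64, -3.84 and -3.49 in NICD2 liver, at least 2.60-fold higher with an adjusted p of 0.0616. Reg1 passed the filter only through the NICD2 arrays, the group where it was high, so this p is a description. Ptf1a, an acinar transcription factor, had 0.87. The enzyme genes that define acinar cells had Ctrb1 at -0.27, Cela1 at -0.13 and Amy2a5 at 0.25. Of the 12 genes 6 were higher and 6 lower. The mean level over them, -2.72 to -2.03 on the GFP arrays and -1.98 to -1.39 on the NICD2 arrays, includes Pnliprp1 and Reg1, whose GFP values are not measured levels. The median difference of 0.10 was -0.24 without GFP array 1 and 0.29 without GFP array 2.

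The study's own threshold is looser, an unadjusted P under 0.15 with a fold change over 1.8, and it took in 711 probes (1.97%) and 367 named genes. Of these probes 477 were higher (1.32%) and 234 lower (0.649%), so that 67.1% were higher. The groups did not overlap for 391 of them, beside 13.4% of all tested probes. The threshold itself favours such probes on these same arrays, so nothing is read from that count. The balance of higher and lower rested on single arrays. Leaving out GFP array 1 gave 860 probes with 32.4% higher, GFP array 2 gave 1525 with 86.0%, GFP array 3 gave 1171 with 75.1%, NICD2 array 1 gave 891 with 57.5%, NICD2 array 2 gave 1275 with 77% and NICD2 array 3 gave 813 with 49.1%. The genes named from here on, except where an adjusted p under 0.05 is given, pass only this threshold or none, and their values are descriptions. For 3 arrays against 3 the smallest exact two-sided permutation p is 0.1, and genes whose groups do not overlap have that value.

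Growth arrest and proliferation genes were a main subject of the study. Cdkn1a, which encodes the cell cycle inhibitor p21, read 1.19, 1.39 and 2.17 in GFP liver and 2.98, 2.55 and 2.82 in NICD2 liver. The groups did not overlap, and the difference of 1.2 (SE 0.39) had an adjusted p of 0.563. Within slide 1 the difference was 1.47, and within slide 2 it was 0.65. The other Cdkn1a probe had 0.84 (adjusted p = 0.513). Cdk1, the kinase that drives entry into mitosis, read -3.83, -3.34 and -3.76 against -4.03, -3.66 and -4.23, so that the groups overlapped, and the difference was -0.33 (SE 0.28, adjusted p = 0.918, exact permutation p = 0.3). Leaving out 1 array gave -0.48 to -0.17.

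Of the 26 targets of the tumour suppressor p53 tested, 20 were higher and 6 lower, and 0 passed the test. The groups did not overlap for 10 of them with NICD2 higher (9.8% of all genes) and for 1 with NICD2 lower. The median was 0.29, and 0.12 without GFP array 1. Ckap2, a spindle protein on this list, read -2.24, -2.01 and -1.54 in GFP liver and -1.28, -0.89 and -1.06 in NICD2 liver (0.85, SE 0.23, adjusted p = 0.402). Phlda3, an inhibitor of Akt, had 0.81, and the death receptor Tnfrsf10b had 0.67. Mdm2, which degrades p53, and Bax, which opens mitochondria in apoptosis, had 0.16 each, and Gadd45a had -0.44.

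Of 36 S phase and mitosis genes, 16 were higher and 20 lower with a median of -0.03 (-0.16 without GFP array 1, 0.05 without GFP array 3), and 0 passed the test. Birc5, which encodes survivin, read -0.99, -0.75 and -0.85 against -0.23, 0.11 and 0.11 (0.86, SE 0.12, adjusted p = 0.0616), and its other probe had 0.77 (adjusted p = 0.584). Dtl, the ubiquitin ligase subunit that targets the licensing factor Cdt1, was at least 1.39-fold lower on a probe measured by 2 GFP arrays and no NICD2 array (adjusted p = 0.628). The 16 cell cycle inhibitors had a median of -0.00 and the 30 apoptosis genes one of -0.08 (-0.00 without GFP array 3), with 0 genes of either list passing the test.

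**Figure D3:**
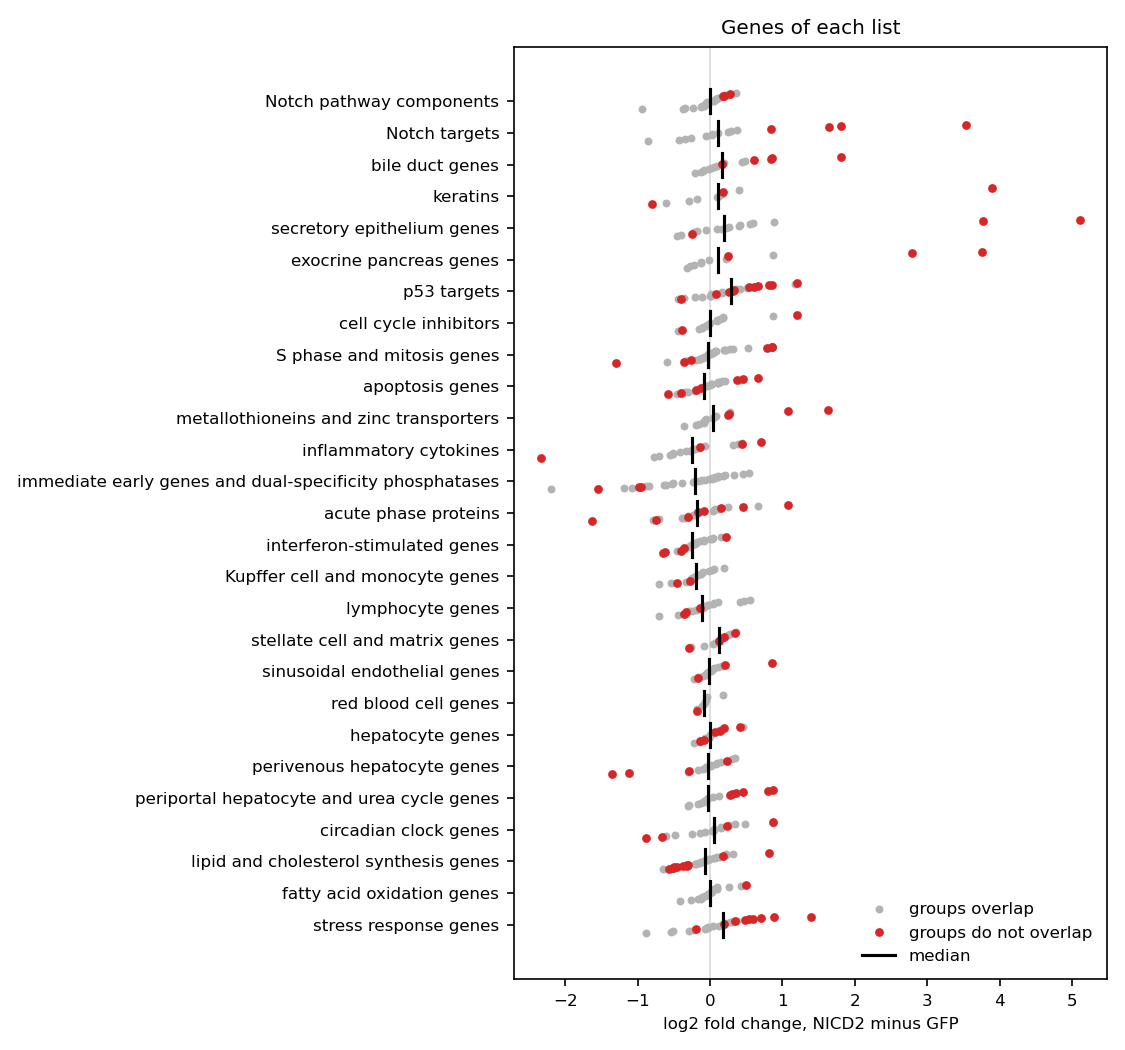
Log2 fold change of NICD2 minus GFP for each tested gene of 27 lists, 1 point a gene, with the list median as a black bar and red points for genes whose groups do not overlap. The medians lie between -0.25 and 0.29, and the points furthest to the right are Wfdc3, Krt79, Scgb1a1, Pnliprp1 and Nrarp, of which Pnliprp1 and Nrarp were not well above background in GFP liver.

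Of the metallothioneins, small zinc-binding proteins, Mt1 and Mt2 had the highest values of their list, while Mt3 and Mt4 had -0.07 and -0.15. Mt2 read 4.84, 3.2 and 4.30 in GFP liver and 6.47, 5.47 and 5.29 in NICD2 liver, a difference of 1.63 (SE 0.51, adjusted p = 0.517). Mt1 read 7.01, 5.69 and 6.15 against 7.84, 7.14 and 7.10 (1.08, SE 0.37, adjusted p = 0.584). Both separated the groups without passing the adjusted threshold. The median over 15 metallothionein and zinc transporter genes was 0.04, and -0.06 without GFP array 1.

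Immune and inflammatory lists had medians below 0 that rested in part on single GFP arrays, with 0 of the cytokine, acute phase, interferon and Kupffer cell genes passing the test. Il1b, the cytokine interleukin-1 beta, read -0.45, -0.74 and -0.40 in GFP liver and -3.46, -3.31 and -1.82 in NICD2 liver. The NICD2 arrays all lay below the GFP arrays, with the third NICD2 array nearest to them, and the difference was -2.34 (SE 0.37, adjusted p = 0.0973), with -1.27 (adjusted p = 0.402) on its other probe. Of 19 cytokine and related genes 14 were lower, with a median of -0.25 that became 0.03 without GFP array 3. Tnfaip3 and Nfkbia, which restrain NF-kappa B, had 0.71 and 0.44 with groups that did not overlap.

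Socs3, which restrains interleukin-6 signalling, read 1.70, 3.38 and 2.39 against 0.26, 0.78 and 1.56 (-1.63, SE 0.71, adjusted p = 0.719). Its values varied within each group by more than 1 log2 unit. The median was -0.17 over 24 acute phase proteins (-0.08 without GFP array 1) and -0.25 over 25 interferon-stimulated genes (-0.11 without GFP array 3). It was -0.20 over 19 Kupffer cell and monocyte genes (-0.09 without GFP array 3, -0.35 without GFP array 2) and -0.11 over 22 lymphocyte genes (-0.06 without GFP array 3, -0.27 without GFP array 1). The third GFP array was the highest of the 6 in the cytokine, interferon, Kupffer cell and lymphocyte lists, with a median of 0.21 to 0.23 above the GFP mean of each gene, while the second GFP array lay at -0.30 on that scale in the Kupffer cell list, below the NICD2 arrays at -0.27 to -0.11. In the Kupffer cell and monocyte list 16 of 19 genes were lower, with groups that did not overlap for 2 of them, against 6.47% of all genes, and in the interferon list 20 of 25 were lower, with 4 such genes. The part of the immune cell markers in the cytokine values was not tested.

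Of 31 immediate early and dual-specificity phosphatase genes, Dusp10 was the one that fell by the adjusted test, and 20 were lower and 11 higher. The median of -0.21 rested on single arrays, being -0.61 without NICD2 array 3 and 0.01 without NICD2 array 1. Klf10, an early response gene of transforming growth factor beta, was at least 3.75-fold lower on a probe with no NICD2 array well above background (adjusted p = 0.079), and its other probe read 3.17, 3.55 and 3.30 against 1.86, 2.15 and 3.14 (-0.96, adjusted p = 0.783). Dusp4, a phosphatase of ERK, had -0.98 (SE 0.24, adjusted p = 0.347). Areg, a ligand of the EGF receptor, was at least 1.54-fold lower (adjusted p = 0.322), on a probe that passed the filter only through the GFP arrays.

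Id2, an inhibitor of helix-loop-helix factors, read 5.18, 4.99 and 4.74 in GFP liver and 3.42, 3.39 and 4.01 in NICD2 liver (-1.36, SE 0.28, adjusted p = 0.223). The difference was -1.68 within slide 1 and -0.72 within slide 2. Klhdc8a, a kelch domain protein, read -2.63, -2.93 and -2.31 against -4.18, -4.26 and -3.85 (-1.47, SE 0.26, adjusted p = 0.146). In both cases each NICD2 array was below each GFP array. Among other genes, the complement protease Cfd was at least 2.81-fold lower on 1 probe (adjusted p = 0.384), with overlapping groups on the other (-1.36, adjusted p = 0.609, and 0.14 within slide 2). Map9, a microtubule protein, was at least 1.67-fold lower on 1 probe (adjusted p = 0.535) with -0.09 on its other probe. Fam83a was at least 5.16-fold higher (adjusted p = 0.215), and Fam107a at least 2.65-fold higher on 1 probe (adjusted p = 0.0899), with -0.42 on the other.

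Hepatocyte genes had a median difference of 0.00 over 23 genes, 13 higher and 10 lower. Of 16 perivenous genes, Axin2, a feedback target of Wnt signalling, read -1.44, -2.33 and -2.72 in GFP liver and -4.13, -3.42 and -3.01 in NICD2 liver (-1.35, SE 0.36, adjusted p = 0.393). The value was -1.89 within slide 1 and -0.29 within slide 2, and the other Axin2 probe, with overlapping groups, had -0.50 (adjusted p = 0.899). Tbx3, also a Wnt-responsive factor of perivenous cells, read 4.69, 3.40 and 3.73 against 2.66, 2.81 and 3.01 (-1.12, SE 0.33, adjusted p = 0.475). The perivenous enzymes Glul and Cyp2e1 had -0.10 and 0.02, and the list median was -0.02. Of 17 periportal and urea cycle genes the groups did not overlap for 6, all higher (9.8% of all genes). Among them were the dehydrogenase Aldh1b1 (3.66, 3.82 and 4.03 against 4.68, 4.78 and 4.68, a difference of 0.88, SE 0.15, adjusted p = 0.143), serine dehydratase Sds (0.80) and Pck1 of gluconeogenesis (0.46). The list median was -0.03, and 0.04 without GFP array 3.

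In the synthesis of lipid and cholesterol, 22 of 33 genes were lower with a median of -0.08, and the groups did not overlap for 9 lower and 2 higher genes, beside 6.47% lower and 9.8% higher over all genes. Without GFP array 3 the median was -0.15, and without GFP array 1 it was -0.04. Hmgcs1 of the mevalonate pathway had -0.50 and the regulator Srebf2 had -0.45. The 23 fatty acid oxidation genes had a median of 0.00. Of 26 stress response genes, with a median of 0.18, the groups did not overlap for 8 higher and 1 lower (9.8% and 6.47% of all genes). The median was 0.11 without NICD2 array 1. Values were 1.39 for Chac1 (adjusted p = 0.714), 0.89 for the heat shock protein Hsph1 (adjusted p = 0.445), 0.71 for Dnajb9 and 0.60 for Herpud1. Among 19 clock genes, with a median of 0.05 (0.11 without NICD2 array 2), Ciart had 0.87 (adjusted p = 0.226) and Npas2 was at least 1.51-fold lower (adjusted p = 0.587). The Npas2 probe passed the filter only through 2 GFP arrays.

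Among markers of other liver cells, the median was 0.13 over 16 stellate cell and matrix genes (0.21 without GFP array 3), of which 13 were higher, -0.01 over 16 sinusoidal endothelial genes and -0.08 over 8 red blood cell genes (-0.22 without NICD2 array 3, 0.01 without NICD2 array 1). Lyve1 of sinusoidal endothelium (0.86, adjusted p = 0.28) and the hepcidin gene Hamp2 of the acute phase list (1.07, adjusted p = 0.402) had values above their lists without passing the test.

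The NICD2 vector was also compared in the presence of NICD1, as the difference between NICD1&2 and NICD1 liver. These 5 arrays are in neither group mean of the comparison with GFP, but all 11 arrays set the filter and the residual variance of both. In both comparisons 3e+11 viral genomes of the NICD2 vector stood in place of as many of the GFP vector. Of the 16 probes that rose in NICD2 liver, 14 were higher in NICD1&2 than in NICD1 liver, with groups that did not overlap, where 63.2% of all tested probes were higher and 21.7% were higher without overlap. The exceptions were Vasn (-0.18) and Eva1c (-0.26). Among the 14, Slc10a6 was well above background on no NICD1 array and on only 1 NICD1&2 array. All 3 probes that fell were lower there too, 2 of them without overlap (8.91% of all probes), although Ikzf3 and Dusp10 were not well above background in NICD1&2 liver.

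Only Krt79 and Wfdc3 of the 19 passed the test in NICD1&2 against NICD1, where 5 probes passed in all (0.0139%). Krt79 read -2.79, -2.28 and -2.31 in NICD1 liver and 0.23 and 0.55 in NICD1&2 liver, a difference of 2.85 (SE 0.21, adjusted p = 0.00938). It lost this call without NICD1 array 2. Wfdc3 read -1.24, -0.95 and -1.13 against 0.89 and 1.51 (2.31, SE 0.23, adjusted p = 0.0359), and lost the call without any 1 of the NICD1 arrays. The number of probes called was 0 to 2 without 1 NICD1 array. Leaving out 1 NICD1&2 array leaves 1 array in that group, with no spread of its own, so calls from such fits are not given. A test of whether the NICD2 difference itself depended on NICD1 called 0 probes (lowest adjusted p = 0.136, and 2528 at an unadjusted p under 0.05).

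**Figure D4:**
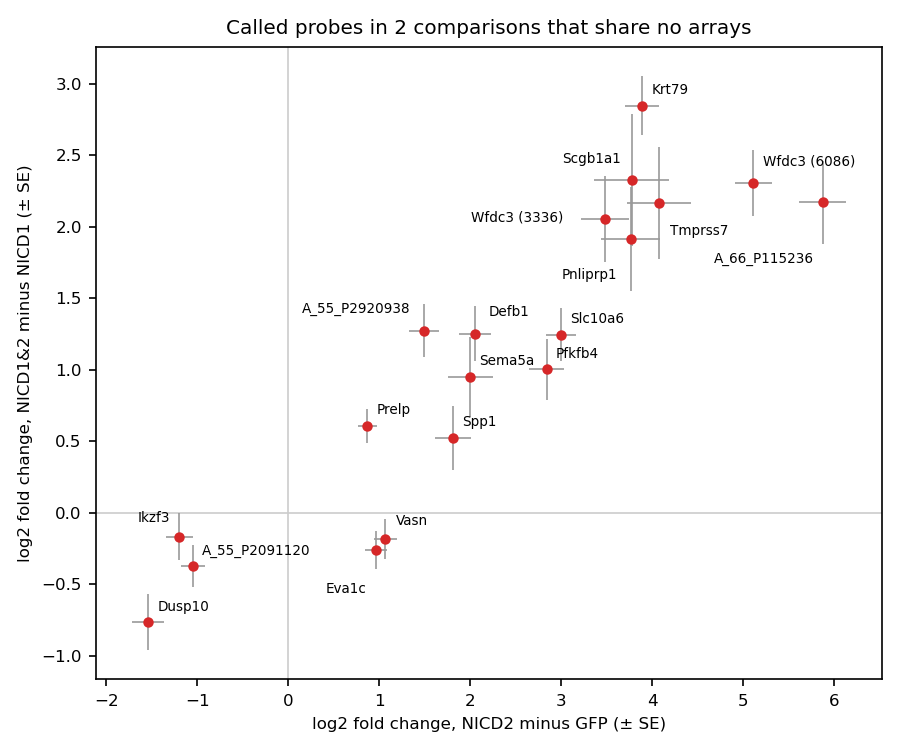
The 19 called probes by their log2 fold change of NICD2 minus GFP (horizontal) and of NICD1&2 minus NICD1 (vertical), with standard errors as bars. The 16 probes that rose lie on the right and 14 of them above 0, with Vasn and Eva1c just below it. Slc10a6 was not well above background on the NICD1 arrays, nor were Tmprss7, Pnliprp1, Slc10a6 and the second Wfdc3 probe on the GFP arrays or Dusp10 and Ikzf3 on the NICD2 and NICD1&2 arrays, so their positions on those axes are fitted values and not measured levels.

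Over the probes past the study's threshold the second comparison separated the directions less. Of the 477 that were higher in NICD2 than in GFP liver, 72.3% were also higher in NICD1&2 than in NICD1 liver, with a median difference of 0.37 beside 0.10 over all probes. Of the 234 that were lower, 48.3% were higher there, with a median of -0.06. Il1b had 0.26 and Id2 had 0.68 in NICD1&2 against NICD1, where Hes1 had 1.39, Nrarp 2.45 and Mt2 2.51.

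The p53 targets had a median of 0.71 in this second comparison beside 0.29 in the first, a gap that was not tested. Of the 26 genes 25 were higher in NICD1&2 than in NICD1 liver, with groups that did not overlap for 19, against 66.8% higher and 24.1% higher without overlap over all genes. Over all genes the median was 0.11. Cdkn1a read 1.48, 1.63 and 0.15 in NICD1 liver and 3.26 and 3.58 in NICD1&2 liver (2.33, SE 0.44, adjusted p = 0.249). Ckap2 had 2.01 (adjusted p = 0.0841) and Phlda3 2.03.

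Direct comparison of NICD2 with NICD1 liver called 1 probe, that of Krt79 (0.00277%). Krt79 was 9.56-fold higher in NICD2 than in NICD1 liver (3.26, SE 0.19, adjusted p = 0.00111), and it passed whichever of those 6 arrays was left out. Wfdc3 had 2.10 (SE 0.20, adjusted p = 0.0519) and Spp1 had 0.10 (SE 0.20). Since this comparison shares its 3 NICD2 arrays with the one that chose the 16 probes that rose, their direction here is a description. All 16 were higher in NICD2 than in NICD1 liver, 14 without overlap, where 51% and 5.12% of all probes were, and nothing is read from these counts. Cdk1 read -2.68, -3.02 and -2.51 in NICD1 liver, above every NICD2 array, and the difference of NICD2 minus NICD1 was -1.23 (SE 0.28, adjusted p = 0.87).

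The comparisons of NICD1 and of NICD1&2 with GFP use the same 3 GFP arrays, and their values are given side by side. For Wfdc3 they were 3.01 with NICD1 (adjusted p = 0.00244) and 5.32 with both domains, beside 5.11 with NICD2. The unnamed probe A_66_P115236 had 3.93 with NICD1 (adjusted p = 0.00244), 6.10 with both and 5.87 with NICD2. Krt79 had 0.63, 3.48 and 3.89 in that order, Scgb1a1 had 1.77, 4.10 and 3.78, and Pfkfb4 had 1.97, 2.97 and 2.84. With NICD1 the adjusted p of Pfkfb4 was 0.035. Defb1 had 1.01, 2.27 and 2.05, and Sema5a had 1.01, 1.96 and 2.00. Spp1 had 1.71 with NICD1 and 2.23 with both, near the 1.81 of NICD2, and Vasn had 0.92 and 0.74 beside 1.07. For Hes1 the values were -0.03, 1.36 and 1.64, for Cdkn1a -0.49, 1.84 and 1.2, for Mt2 -1.0, 1.51 and 1.63, and for Il1b -2.0, -1.74 and -2.34.

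**Figure D5:**
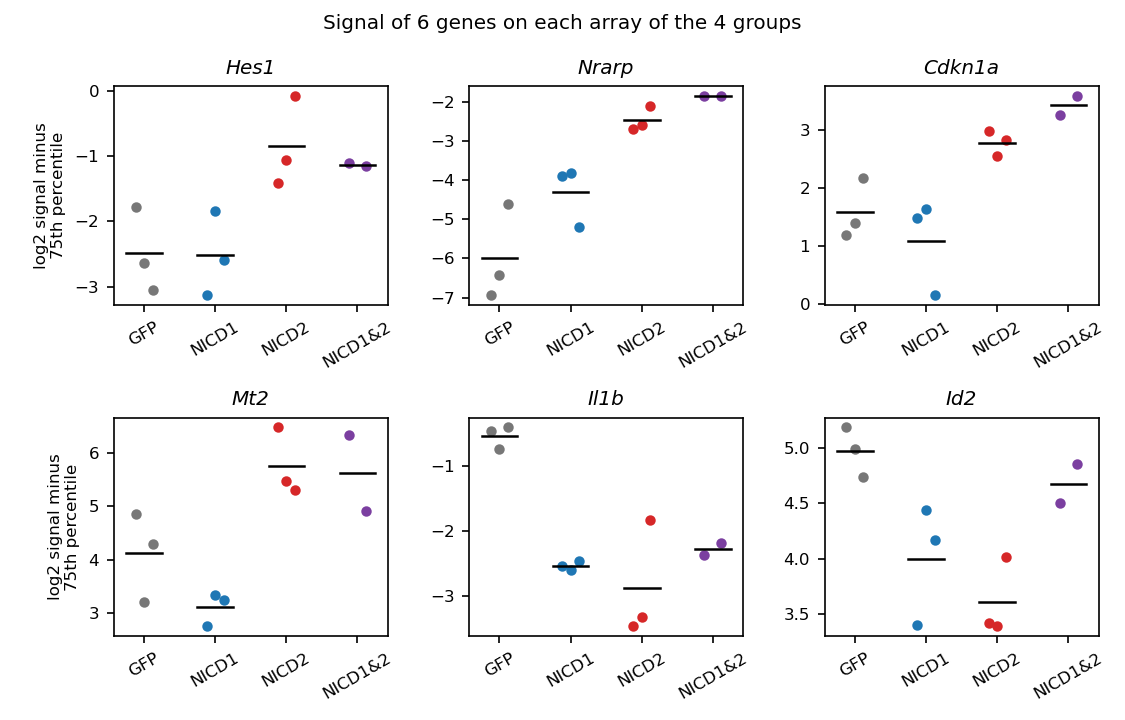
Signal of 6 genes on each array of the 4 groups, as log2 signal less the 75th percentile of the array, with bars at the group means. Hes1, Cdkn1a and Mt2 lie higher on the NICD2 and NICD1&2 arrays than on the NICD1 arrays. Il1b lies lower in all 3 groups with an NICD vector than in liver with the GFP vector alone, and the GFP points of Nrarp were not well above background.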

How the data were processed

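Total RNA of mouse liver was hybridised to 1-colour Agilent arrays. The authors' Feature Extraction software subtracted background and spatial trends, and the deposited processed signals are intensities not normalised between arrays. The authors also deposited a table of log2 values normalised in GeneSpring, which was used as an alternative. The methods and the labels name different RNA kits, and each array held 62976 spots, more than the format that the methods name.

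Spots flagged as outliers and 3671 control spots were left out, spots of a probe were averaged, and log2 signal less the 75th percentile of each array was taken. Probes marked well above background for 2 or more of 11 samples were kept (36052 of 56605, 24040 with a gene name). Slc10a6, Reg1 and the Fam107a probe that rose met this through the NICD2 arrays, with at most 1 NICD1&2 array. Areg and Npas2 met it through the GFP arrays alone. The called Ikzf3 probe and the Map9 and Cfd probes with bounds met it through the GFP arrays and 1 NICD1 array. These probes entered through the group where they were high, so their adjusted p values are descriptions. All 4 groups were fitted together with limma 3.58.1 (lmFit and eBayes) in R 4.3.3 without covariates, with Benjamini-Hochberg adjustment over all probes, and the scripts were tested on simulated data. Where a probe was not well above background on any array of a group, the bound sets the brighter group's mean against the dim group's mean of, per array, the higher of the lowest signal well above background and the probe's own. A gene was represented in the lists by its brightest probe over all 11 arrays. The number of arrays limits the precision.

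Named genes were Notch1, Notch2, Cdkn1a and Cdk1, every gene at an adjusted p under 0.05, the 10 highest and 10 lowest log2 fold changes past the study's threshold with separated groups, and up to 4 members of each list by the same criteria. Other list members were named after their values were seen, and some genes are not reported here. The members and lists were chosen with earlier results of these data known. Alternatives changed the normalisation, background correction, filter, model, slide and arrays.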

Additional observations from a re-analysis of the deposited data

How the results depend on the processing

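The 19 probes called in NICD2 against GFP liver became 78 with normexp background correction and quantile normalisation together, 10 without a filter on dim probes, 45 with probes well above background on all arrays, 5 in a fit of these groups alone, 9 in an unmoderated model and 0 within slide 1 and 0 within slide 2 (2037 and 2035 at an unadjusted p under 0.05). Leaving out 1 array gave 10 to 16. The 711 probes past the study's threshold became 86 with normexp and quantile together, 1790 without a filter, 218 with the stricter filter, 1368 within slide 2 and 813 to 1525 without 1 array, and the 67.1% higher among them became 53.9% with array weights, 54.2% within slide 1 and 52.6% within slide 2. The 5 probes of NICD1&2 against NICD1 became 3 with quantile normalisation alone, 51 with normexp and quantile together, 1 without a filter, 10 with the stricter filter, 10 with the slide as a block, 1 with array weights, 0 in the groups alone, the unmoderated model and within either slide (3597, 4643, 1910 and 5516 at an unadjusted p under 0.05), and 0 to 208 without 1 array. The 1 probe of NICD2 against NICD1 became 2 with quantile normalisation alone, array weights or a percentile over probes detected on all arrays, 5 with normexp and quantile together, 0 in the groups alone and within either slide (1504, 1131 and 1711), and 1 to 2 without 1 array. Slide 2 held 1 GFP and 1 NICD2 array, and 1 NICD1&2 array, and slide 1 held 1 array each of NICD1 and NICD1&2. Within slides the lone arrays were assumed to vary like the pairs of arrays that share a group and slide (GFP and NICD2 on slide 1, NICD1 on slide 2). The causes were not tested.

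The differences turned for the second Map9 probe within slide 2 (0.15) and, in the range of -0.19 to 0.029 without 1 array, without GFP array 2 (0.024) and without NICD2 array 2 (0.029), for the second Fam107a probe within slide 2 (0.22) and for the second Cfd probe within slide 2 (0.14). Across all alternatives 1136 values of named probes kept direction and side of the threshold, 151 lost the call, 14 gained one and 5 reversed. Of the list medians 452 moved by less than the spread between arrays and 88 by more.

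The labels number the samples of each group. Of 15 same-numbered pairs 6 had correlated deviations over 0.1 (range -0.43 to 0.18). The deviations within a group of so few arrays are tied to each other. These correlations therefore cannot decide whether samples with the same number belong together. With the replicate number as a block the calls were 12 for NICD2 against GFP and 0 for NICD1&2 against NICD1 (3764 at an unadjusted p under 0.05). Probes near background carry only bounds.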

Other observations

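Several genes outside the lists had groups that did not overlap and passed the study's threshold without passing the adjusted one (limma), and they are given as values, chosen after the data were seen. Lpin1, which makes diacylglycerol and co-activates fatty acid oxidation genes, read 2.54, 3.12 and 3.84 in GFP liver and 4.93, 5.55 and 5.50 in NICD2 liver (2.16, SE 0.38, adjusted p = 0.146). Fkbp5 and Zbtb16, both known as glucocorticoid-induced genes, had 1.74 (adjusted p = 0.29) and 2.16 (adjusted p = 0.43). The nuclease gene Dnase1 read -1.61, -1.16 and -1.78 against 0.81, 0.32 and 1.35 (2.35, SE 0.44, adjusted p = 0.18), and the aldo-keto reductase Akr1b7 had 1.43. Bhlha15, a transcription factor of secretory cells, had 1.73.

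On the lower side, Tnfaip2, a gene induced by tumour necrosis factor, had -1.25, and the cyclic AMP phosphodiesterase Pde4b had -1.11 (adjusted p = 0.07). The Wnt receptor Fzd7 had -1.06, and Smad6, an inhibitor of bone morphogenetic protein signalling, had -1.02 (adjusted p = 0.06).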
